A study of Mus musculus with 6 samples.

Results

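Axon guidance ligands and receptors were examined in the hippocampus of *LAO1* KO pups that had been nursed on milk with or without LAO1. The members were the genes whose symbols in the array annotation belong to the Eph receptors, ephrins, semaphorins of classes 3 to 7, plexins, neuropilins, Slits, Robo receptors, netrins, and Dcc and Unc5 receptors. This rule found 65 of the 19505 genes with a symbol, each measured by a single transcript cluster, which is the set of probes for a gene on the Clariom S mouse array. The groups were *LAO1* KO with KO milk (3 arrays), knockout pups nursed by *LAO1* KO dams, and *LAO1* KO with WT milk (3 arrays), knockout pups nursed by WT dams. All mice had the C57BL/6Jcl background, cross-fostering took place on the day of birth, and total hippocampal RNA was taken on postnatal day 10. The comparison asks whether the milk of the nursing dam goes with a difference in hippocampal gene expression, and it is given throughout as KO milk minus WT milk on the log2 scale.

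Growing axons read attractive and repulsive cues through these families. Ephrins are bound to the membrane and signal on cell contact to Eph receptor tyrosine kinases, often in both directions. Semaphorins, secreted or membrane-bound, act through plexins, with neuropilins as co-receptors for the secreted class. Slits repel axons through Robo receptors, and netrins attract through Dcc and repel through Unc5 receptors. In the hippocampus these molecules are known for sorting mossy fiber, entorhinal and commissural axons into layers, and many remain in use at synapses after the axons have arrived. Some also act on glia, on blood vessels and on migrating cells.

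The deposited values are log2 intensities, and array medians lay between 6.89 and 6.92. KO milk replicate 3 stood apart, lying 0.479 to 0.537 from the other arrays over all clusters (root mean square of the log2 differences), and distances among the other 5 ran from 0.321 to 0.407. Over the 65 members it lay 0.448 to 0.491 from the rest, and it held the highest value of 22 members and the lowest of 13. The labels call every pup male, but the Y-gene signal (mean log2 intensity of *Eif2s3y*, *Kdm5d* and *Uty*) was 3.26, 9.98 and 3.35 in KO milk replicates 1, 2 and 3 and 10.45, 3.56 and 9.97 in WT milk replicates 1, 2 and 3, so 3 arrays went against their label. The study's methods say that its neonates were of both sexes. Markers of hippocampal neurons were present, with all 12 measured markers above the floor. So were all 10 choroid plexus, 10 thalamus and 2 striatum markers measured, and 1 of 6 markers of hindbrain and midbrain. Presence above the floor is therefore no check of the dissection. Here the floor is the 95th percentile of the mean intensity of 1091 olfactory receptor clusters (5.68), genes that hippocampal tissue is not known to use. Of the 65 members, 57 lay above this floor and 8 did not (*Epha2*, *Epha8*, *Efna4*, *Sema3g*, *Slit2*, *Robo3*, *Ntn1* and *Ntn4*). Fewer cells of a type and less RNA per cell cannot be told apart in such tissue samples. The sources do not say which litters the pups came from, so p-values measure only the spread between these 6 samples. Close relatives within a family could share probe signal, which was not checked.

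The members as a whole differed little between the milk groups, and the largest differences lay among receptors and cues outside the Eph and ephrin families. In limma, at an unadjusted p under 0.05, 5 members were higher with KO milk (*Slit3*, *Sema6c*, *Dcc*, *Plxna4* and *Unc5a*), 1 was lower (*Plxnb3*) and 59 did not pass. Across all 22206 clusters the same threshold took 1.61% in the higher and 1.66% in the lower direction, and 0.893% and 1.84% of the 14004 clusters above the floor. After Benjamini-Hochberg adjustment over all clusters limma called 0 members, as it called 0 clusters on the whole array (0%), and each of the 6 had an adjusted p = 0.9996. Groups did not overlap for 5 members with KO milk higher (background 4.26%) and 3 with KO milk lower (background 4.17%). Above the floor these were 5 and 1 members, where the background was 3.32% and 4.56%. The median log2 fold change of the 65 members was 0.05 against 0.0043 over all clusters, and 39 of the 65 lay above 0 against 11288 of 22206 clusters. For 63 of the 65 members (96.9%) the 95% interval of the log2 fold change lay within -1 and 1, that is under 2-fold in either direction. The exceptions were *Slit3* and *Plxnb3*. This share was 94.8% over all clusters and 94.3% over those above the floor, so it is not particular to the members.

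**Figure D1:**
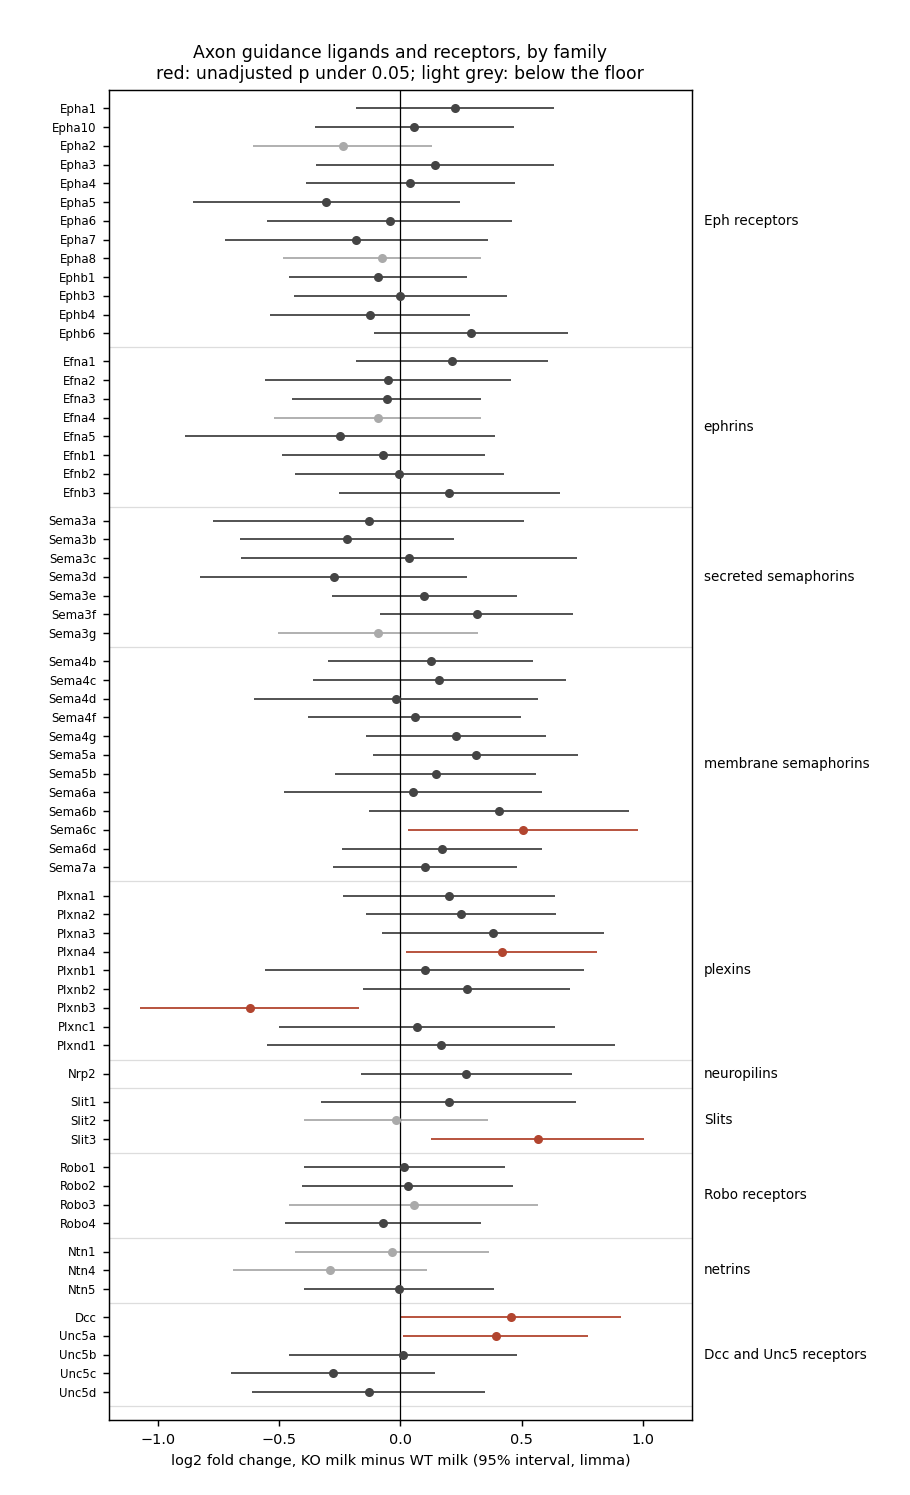
Log2 fold change (x axis, KO milk minus WT milk) of the 65 members, grouped by family, with limma's 95% interval as bars; red marks an unadjusted p under 0.05 and light grey a member below the floor. The membrane semaphorins and plexins lie right of 0 except *Plxnb3* at -0.62 and *Sema4d* at -0.02, whereas Eph receptors and ephrins lie on both sides of 0.

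*Slit3* encodes a secreted ligand of Robo receptors. Its log2 intensities were 12.13, 12.12 and 12.54 in KO milk replicates 1, 2 and 3 and 11.73, 11.91 and 11.46 in WT milk replicates 1, 2 and 3. All 3 KO milk arrays lay above all 3 WT milk arrays, and KO milk replicate 3 was the highest. The means were 12.26 ± 0.24 with KO milk and 11.70 ± 0.23 with WT milk (SD, n = 3 each; exact permutation test, two-sided p = 0.1, the smallest that 3 arrays against 3 allow). The log2 fold change was 0.57 (standard error 0.20, 95% interval 0.13 to 1.01, unadjusted p = 0.0164 from limma), or 1.48-fold. It was 0.43 without KO milk replicate 3 (unadjusted p = 0.0494 from limma) and 0.44 without WT milk replicate 3, where it did not pass (unadjusted p = 0.0761 from limma).

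The other Slits and the Robo receptors did not pass. *Slit1*, a ligand of the same receptors in forebrain, read 11.90, 11.82 and 12.53 with KO milk and 11.85, 12.21 and 11.59 with WT milk, so the groups overlapped and KO milk replicate 3 alone lay above the WT milk arrays. Its log2 fold change was 0.20 (95% interval -0.33 to 0.73), or -0.03 without KO milk replicate 3. *Slit2* lay below the floor, at 5.59 ± 0.12 with KO milk and 5.61 ± 0.13 with WT milk (SD, n = 3 each). *Robo1* and *Robo2*, the main neuronal Slit receptors, had log2 fold changes of 0.02 (95% interval -0.40 to 0.43) and 0.03 (95% interval -0.41 to 0.47). *Robo2* read 11.23, 11.23 and 11.21 in the KO milk arrays, a spread far smaller than in the WT milk arrays, at 11.56, 10.96 and 11.06. *Robo3*, a receptor of commissural axons, and *Robo4*, a receptor of endothelium, had values of 0.05 and -0.07. The intervals of all 4 Robo receptors included 0.

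*Dcc* encodes the receptor through which netrin-1 attracts axons. It read 11.90, 11.79 and 11.44 in KO milk replicates 1, 2 and 3 and 11.56, 11.18 and 11.03 in WT milk replicates 1, 2 and 3. The groups overlapped, since WT milk replicate 1 lay above KO milk replicate 3. The means were 11.71 ± 0.24 with KO milk and 11.26 ± 0.27 with WT milk (SD, n = 3 each; exact permutation test, two-sided p = 0.2). The log2 fold change was 0.46 (standard error 0.21, 95% interval 0.0030 to 0.91, unadjusted p = 0.0487 from limma), the member nearest to the threshold inside it. It did not pass without KO milk replicate 1 (0.36), KO milk replicate 2 (0.42), WT milk replicate 2 (0.42) or WT milk replicate 3 (0.34), nor in the methods' t-test, which does not pool the spread over genes, or with the Y-gene signal as a covariate (0.50, unadjusted p = 0.0518 from limma).

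*Unc5a* encodes a netrin receptor for repulsion. It read 10.98, 10.95 and 10.81 with KO milk and 10.51, 10.37 and 10.67 with WT milk. The groups did not overlap, and the arrays of each group lay close together (10.91 ± 0.09 with KO milk and 10.52 ± 0.15 with WT milk, SD, n = 3 each; exact permutation test, two-sided p = 0.1). The log2 fold change was 0.39 (standard error 0.17, 95% interval 0.01 to 0.77, unadjusted p = 0.0441 from limma), or 1.31-fold. It lost the threshold without KO milk replicate 1 (0.36), KO milk replicate 2 (0.38), WT milk replicate 1 (0.39) or WT milk replicate 2 (0.32).

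The remaining receptors of this group did not pass. *Unc5b*, which vessels use as well, *Unc5c* and *Unc5d* had log2 fold changes of 0.01, -0.28 and -0.13, and for none of them did the interval exclude 0. *Unc5c* read 8.19, 7.86 and 7.77 with KO milk and 8.31, 8.34 and 8.01 with WT milk, with KO milk replicate 1 inside the range of the WT milk arrays. Of the ligands, *Ntn1*, the classical netrin, lay below the floor at 5.24 ± 0.20 with KO milk and 5.28 ± 0.13 with WT milk (SD, n = 3 each). *Ntn4*, a netrin of basement membranes, read 4.15, 4.55 and 4.44 with KO milk and 4.58, 4.81 and 4.63 with WT milk. The groups did not overlap for *Ntn4* (exact permutation test, two-sided p = 0.1), but both lay below the floor and the log2 fold change of -0.29 did not pass (unadjusted p = 0.14 from limma). *Ntn5* had a value of -0.0059.

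*Sema6c* is a membrane semaphorin of class 6, whose members signal to A-class plexins. It read 9.319, 9.738 and 9.718 with KO milk and 9.217, 8.719 and 9.322 with WT milk. WT milk replicate 3 lay just above KO milk replicate 1, so the groups overlapped by a margin smaller than any difference between the other arrays of either group. The means were 9.59 ± 0.24 with KO milk and 9.09 ± 0.32 with WT milk (SD, n = 3 each; exact permutation test, two-sided p = 0.2), a log2 fold change of 0.51 (standard error 0.21, 95% interval 0.03 to 0.98, unadjusted p = 0.0382 from limma). It did not pass without KO milk replicate 2 (0.43), KO milk replicate 3 (0.44) or WT milk replicate 2 (0.32), with array weights (0.42), or in the methods' t-test.

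*Plxna4* encodes an A-class plexin, a receptor for class 6 semaphorins and, with a neuropilin, for class 3. It read 13.40, 13.28 and 13.54 with KO milk and 13.16, 12.99 and 12.83 with WT milk. The groups did not overlap (13.41 ± 0.13 with KO milk and 12.99 ± 0.17 with WT milk, SD, n = 3 each; exact permutation test, two-sided p = 0.1). The log2 fold change was 0.42 (standard error 0.18, 95% interval 0.02 to 0.81, unadjusted p = 0.0392 from limma), or 1.33-fold. It did not pass without KO milk replicate 1 (0.42), KO milk replicate 3 (0.35), WT milk replicate 2 (0.41) or WT milk replicate 3 (0.34), nor with the Y-gene signal as a covariate (0.39, unadjusted p = 0.0832 from limma).

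*Plxnb3* encodes a B-class plexin that binds *Sema5a* and that, in the mouse brain, is known from oligodendrocytes. It read 6.897, 6.790 and 6.687 with KO milk and 7.539, 7.670 and 7.026 with WT milk. All KO milk arrays lay below all WT milk arrays, and WT milk replicate 3 was the nearest to them. The means were 6.79 ± 0.10 with KO milk and 7.41 ± 0.34 with WT milk (SD, n = 3 each; exact permutation test, two-sided p = 0.1). The log2 fold change of -0.62 (standard error 0.20, 95% interval -1.07 to -0.17, unadjusted p = 0.0116 from limma) corresponds to 1.54-fold less signal with KO milk. It was -0.49 without WT milk replicate 2, where it did not pass (unadjusted p = 0.0562 from limma), and -0.81 without WT milk replicate 3. Markers of myelinating oligodendrocytes moved in the same direction. Of 10 measured, 8 were lower and 0 were higher (limma, unadjusted p under 0.05), and their median against the WT milk mean was -1.25, -0.40 and -0.88 in KO milk replicates 1, 2 and 3 and -0.10, 0.13 and 0.02 in WT milk replicates 1, 2 and 3. *Plxnb3* lay at -0.51, -0.62 and -0.72 in the same KO milk arrays and at 0.13, 0.26 and -0.39 in the same WT milk arrays. The summed linear signal of these markers, in units of 1000, was 47.6 to 79.7 with KO milk and 106.3 to 116.1 with WT milk. *Mbp*, the brightest of them (mean log2 intensity 15.75 with KO milk and 16.55 with WT milk), made up most of this sum. None of the markers was below the floor, and their part in the *Plxnb3* result was not tested.

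**Figure D2:**
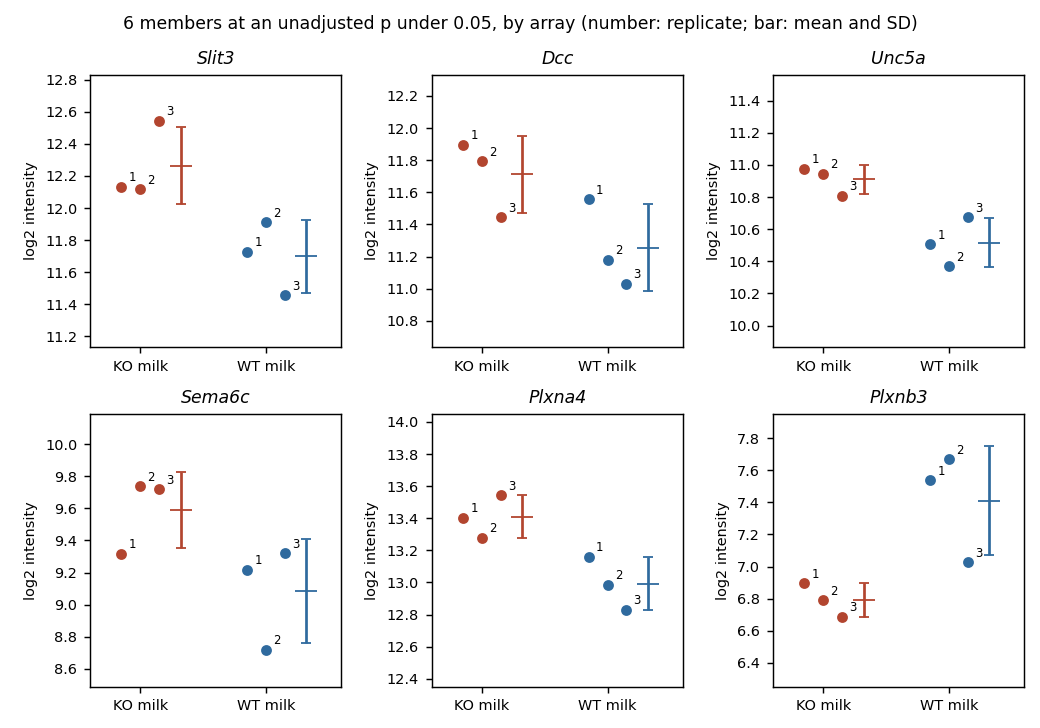
Log2 intensity (y axis) of the 6 members at an unadjusted p under 0.05, with KO milk arrays on the left and WT milk arrays on the right of each panel; points are arrays with their replicate number, and bars are the mean with its SD. *Slit3*, *Unc5a*, *Plxna4* and *Plxnb3* show no overlap between groups, whereas *Dcc* and *Sema6c* do.

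As a description, the 250 bases before annotated start sites are shown for *Slit3*, *Unc5a*, *Sema6c* and *Plxnb3*, which passed the unadjusted threshold. The higher members did not share 1 highest array. It was KO milk replicate 3 for *Slit3* and *Plxna4*, 1 for *Dcc* and *Unc5a*, and 2 for *Sema6c*. These are RefSeq windows (GRCm38.p6, plus strand, all read 5′ to 3′). No window was found for *Plxna4*, and none is shown for *Dcc*, so these higher members are missing here. The windows are chr11:35121206-35121455 for *Slit3*, chr13:54949161-54949410 for *Unc5a*, chr3:95160170-95160419 for the more upstream of the 2 start sites of *Sema6c*, and chrX:73756853-73757102 for *Plxnb3*. Capitals mark the GC box (GGGCGG, or CCGCCC on the other strand) and 2 core motifs of SOX factors (ACAAAG or CTTTGT, and ACAATG or CATTGT), which were chosen because SOX10 is a factor of the oligodendrocyte lineage.
Slit3: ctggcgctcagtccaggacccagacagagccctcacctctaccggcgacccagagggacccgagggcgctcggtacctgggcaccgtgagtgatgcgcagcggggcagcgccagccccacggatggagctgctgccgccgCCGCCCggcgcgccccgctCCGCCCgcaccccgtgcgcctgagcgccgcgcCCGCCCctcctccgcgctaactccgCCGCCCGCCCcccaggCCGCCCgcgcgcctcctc
Unc5a: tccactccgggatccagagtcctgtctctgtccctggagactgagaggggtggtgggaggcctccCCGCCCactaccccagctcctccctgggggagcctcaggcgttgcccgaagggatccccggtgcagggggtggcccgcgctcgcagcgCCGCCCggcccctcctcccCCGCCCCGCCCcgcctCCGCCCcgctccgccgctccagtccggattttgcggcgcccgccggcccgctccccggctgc
Sema6c: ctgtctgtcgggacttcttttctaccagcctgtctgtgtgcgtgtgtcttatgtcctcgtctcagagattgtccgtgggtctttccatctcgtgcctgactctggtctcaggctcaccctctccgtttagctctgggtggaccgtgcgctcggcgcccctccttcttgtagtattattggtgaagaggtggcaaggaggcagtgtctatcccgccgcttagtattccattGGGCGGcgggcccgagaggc
Plxnb3: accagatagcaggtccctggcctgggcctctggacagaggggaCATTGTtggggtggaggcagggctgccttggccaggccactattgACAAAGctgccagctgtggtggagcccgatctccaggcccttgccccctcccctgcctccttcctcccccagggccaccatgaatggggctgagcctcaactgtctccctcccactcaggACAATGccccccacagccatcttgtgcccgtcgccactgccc
The *Slit3* window held 6 GC boxes and 35 CpG dinucleotides, and the *Unc5a* window 5 GC boxes and 25 CpG dinucleotides, all as CCGCCC and with a pair of overlapping boxes in each window. The *Sema6c* window held 1 GC box and 15 CpG dinucleotides, and the window of its other start site, not shown, held 0 of each. The *Plxnb3* window held 0 GC boxes, 3 CpG dinucleotides, and 1 ACAAAG and 2 ACAATG motifs counted over both strands. The other 3 windows shown held 0 of either SOX motif, as do most windows. The SOX motifs were chosen for the lineage from which *Plxnb3* is known, so this is a description only. A role of SOX factors was not tested. Of all 32851 promoter windows of this length in the table, 32.7% held a GC box, 16.5% the ACAAAG motif, 10.7% the ACAATG motif and 1.9% both SOX motifs. The median over all windows was 6 CpG dinucleotides. The share of windows with as few or fewer was 97.4% for the *Slit3* count and 90.4% for that of *Unc5a*. It was 74.6% for the *Sema6c* window shown and 37.8% for *Plxnb3*. A match describes the letters of a window and does not show that a factor binds there. Windows were present for 55 of the 65 members.

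Among plexins, all 4 A-class genes lay above 0 with KO milk. *Plxna3*, a co-receptor of neuropilin 2, read 8.67, 8.79 and 8.98 with KO milk and 8.33, 8.80 and 8.16 with WT milk. WT milk replicate 2 lay among the KO milk arrays, and the log2 fold change of 0.38 (standard error 0.21, 95% interval -0.08 to 0.84, unadjusted p = 0.0934 from limma) was the nearest to the threshold outside it. *Plxna1* and *Plxna2* had values of 0.20 and 0.25, and neither passed. *Plxna1* read 12.63, 12.58 and 13.16 with KO milk and 12.63, 12.61 and 12.53 with WT milk, and its value was 0.0164 without KO milk replicate 3. For *Plxna2*, a receptor of *Sema6a*, the KO milk arrays read 13.539, 13.402 and 13.360 and the WT milk arrays 13.376, 13.178 and 12.998. Only WT milk replicate 1 reached the KO milk range. Against the WT milk mean the median of the 4 A-class plexins was 0.30, 0.25 and 0.55 in KO milk replicates 1, 2 and 3 and 0.11, 0.01 and -0.17 in WT milk replicates 1, 2 and 3. The groups did not overlap in this median, which is given as a description of 4 related genes and without a test.

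The other B-class plexins did not follow *Plxnb3*. *Plxnb1*, a receptor of *Sema4d*, and *Plxnb2*, a receptor of class 4 semaphorins in neural progenitors, had log2 fold changes of 0.10 (95% interval -0.56 to 0.76) and 0.27 (95% interval -0.15 to 0.70). *Plxnb1* read 8.98, 8.80 and 9.93 with KO milk and 9.37, 8.71 and 9.33 with WT milk. *Plxnd1*, the receptor of *Sema3e*, had the largest spread within groups of all members, with an SD of 0.57. It read 9.44, 9.06 and 10.08 with KO milk and 9.78, 8.66 and 9.64 with WT milk. Both genes were highest in KO milk replicate 3 and lowest in WT milk replicate 2. Leaving out KO milk replicate 3 turned *Plxnb1* to -0.25 and *Plxnd1* to -0.11. *Plxnc1*, the receptor of *Sema7a*, had a log2 fold change of 0.07. *Nrp2*, the measured neuropilin, read 10.83, 11.14 and 11.40 with KO milk and 10.69, 10.99 and 10.87 with WT milk, a difference of 0.27 (95% interval -0.16 to 0.71) in which the groups overlapped.

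Of 12 membrane semaphorins measured, 11 had a log2 fold change above 0, 1 passed (*Sema6c*) and 11 did not, with a median of 0.15 (-0.02 to 0.51). Against the WT milk mean their median was 0.20, 0.13 and 0.36 in KO milk replicates 1, 2 and 3 and 0.18, -0.14 and -0.11 in WT milk replicates 1, 2 and 3, so WT milk replicate 1 lay above KO milk replicate 2. *Sema6b*, a ligand of *Plxna4* in mossy fiber targeting, read 12.54, 12.64 and 13.38 with KO milk and 12.67, 12.23 and 12.45 with WT milk. Only KO milk replicate 3 was clear of the WT milk arrays, and the difference of 0.41 (95% interval -0.13 to 0.94) did not pass and was 0.14 without that array. *Sema6a* and *Sema6d* had values of 0.05 and 0.17. *Sema5a*, the ligand of *Plxnb3*, read 12.88, 12.99 and 13.03 with KO milk and 12.98, 12.45 and 12.54 with WT milk. The difference of 0.31 (95% interval -0.11 to 0.73) had the opposite sign to that of its receptor, and WT milk replicate 1 lay inside the KO milk range. *Sema5b*, its relative, had a value of 0.15.

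Among class 4 semaphorins, *Sema4g* was the only one of the 5 measured with separate groups, at 9.57, 9.50 and 9.71 with KO milk and 9.42, 9.41 and 9.26 with WT milk. Its log2 fold change was small, at 0.23 (standard error 0.17, unadjusted p = 0.2 from limma; exact permutation test, two-sided p = 0.1), and it passed the methods' t-test. *Sema4d*, which oligodendrocytes express and which signals through *Plxnb1*, read 9.01, 8.68 and 9.55 with KO milk and 9.57, 8.89 and 8.84 with WT milk. The groups overlapped fully, with a log2 fold change of -0.02 (95% interval -0.60 to 0.57). *Sema4b*, *Sema4c* and *Sema4f* had values of 0.13, 0.16 and 0.06. *Sema7a*, a semaphorin with a lipid anchor that promotes axon growth, had a value of 0.10 (95% interval -0.28 to 0.48).

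**Figure D3:**
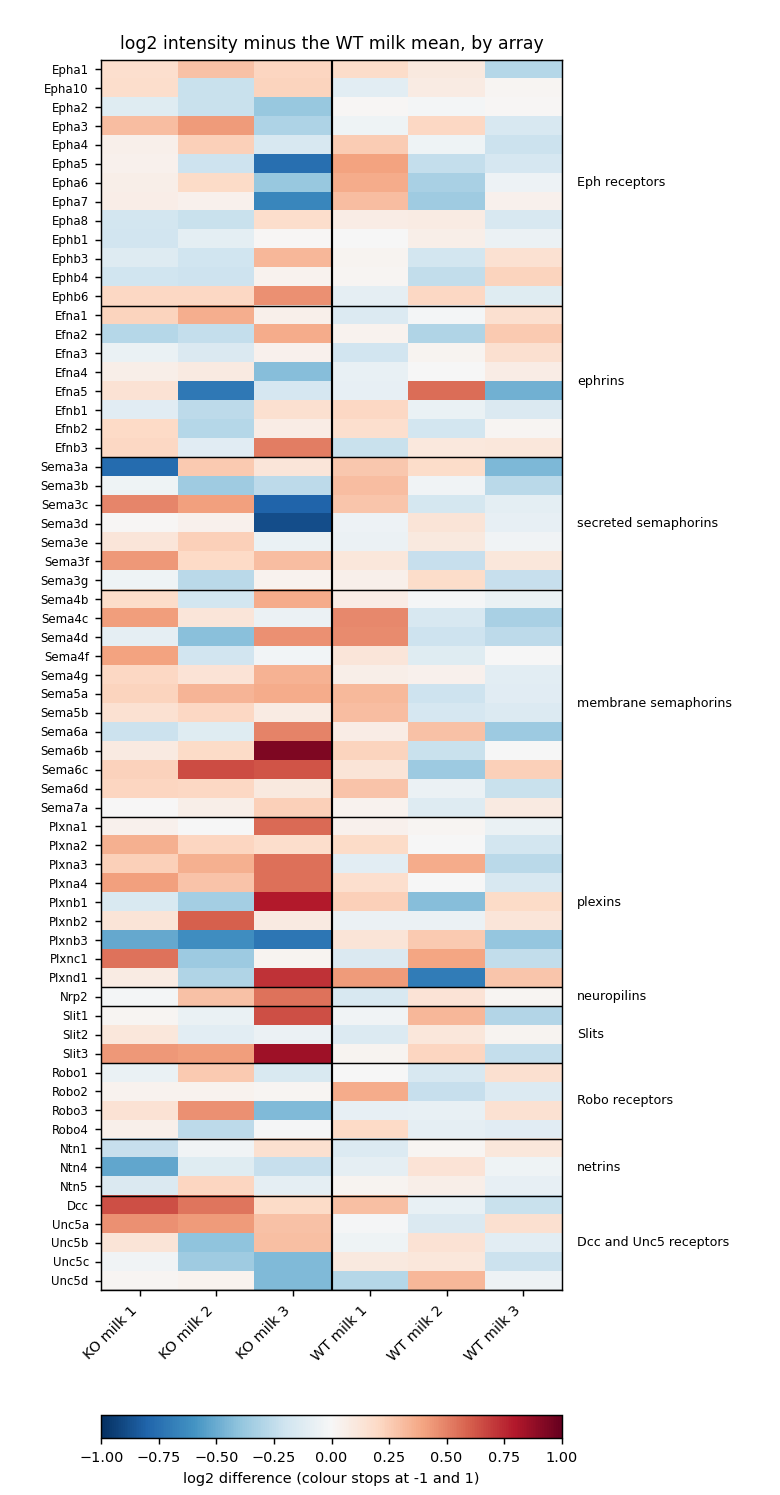
Log2 intensity of each member minus its mean in the WT milk arrays (colour, stopping at -1 and 1), with KO milk arrays in the left 3 columns, WT milk arrays in the right 3 and members grouped by family. KO milk replicate 3 carries the strongest colours, such as *Sema3d* and *Epha5* in blue and *Sema6b* and *Plxnb1* in red.

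Secreted semaphorins differed in no common direction, with a median of -0.09 over 7 genes, of which 0 passed. *Sema3f*, which repels axons through neuropilin 2 and A-class plexins, read 6.68, 6.45 and 6.56 with KO milk and 6.36, 6.02 and 6.37 with WT milk. The groups did not overlap (exact permutation test, two-sided p = 0.1), and the log2 fold change of 0.31 (95% interval -0.08 to 0.71) did not pass limma (unadjusted p = 0.11). *Sema3c* read 11.76, 11.68 and 10.47 with KO milk and 11.54, 11.09 and 11.17 with WT milk. KO milk replicate 3 was the lowest array and the other KO milk arrays the highest, so the value moved between 0.03 with all arrays and 0.45 without KO milk replicate 3, where it passed (unadjusted p = 0.0427 from limma). *Sema3d* was also lowest in KO milk replicate 3, at 8.38, 8.41 and 7.48 with KO milk and 8.32, 8.49 and 8.28 with WT milk, and its value was -0.28 with all arrays and 0.03 without that array. *Sema3a*, the classical collapsin, read 6.06, 7.10 and 6.96 with KO milk and 7.11, 7.02 and 6.39 with WT milk, a difference of -0.13 within the spread of the arrays. *Sema3e*, the ligand of *Plxnd1*, had a value of 0.10, *Sema3b* one of -0.22 and *Sema3g*, below the floor, one of -0.09.

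Of the 13 Eph receptors, 6 lay above and 7 below 0, and 0 passed. Their median was -0.04, and every interval lay within -1 and 1, as did 94.8% of those over all clusters. *Epha4*, a receptor for ephrins of both classes that shapes spines in the hippocampus, read 14.77, 14.96 and 14.56 with KO milk and 14.98, 14.68 and 14.51 with WT milk. The ranges of the groups were nearly the same, and the log2 fold change was 0.04 (95% interval -0.39 to 0.47). *Epha5*, a receptor of ephrin-As in hippocampal projections, read 13.62, 13.37 and 12.82 with KO milk and 13.98, 13.33 and 13.41 with WT milk. *Epha7*, another receptor of this class, read 15.94, 15.91 and 15.22 with KO milk and 16.18, 15.52 and 15.92 with WT milk. Both were lowest in KO milk replicate 3 and highest in WT milk replicate 1, and their values of -0.31 and -0.18 did not pass. *Ephb1*, a receptor of ephrin-Bs, varied little, at 10.97, 11.07 and 11.18 with KO milk and 11.17, 11.23 and 11.11 with WT milk, a difference of -0.09 (95% interval -0.46 to 0.27).

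*Ephb6*, which lacks kinase activity, read 7.29, 7.29 and 7.54 with KO milk and 6.99, 7.29 and 6.97 with WT milk. WT milk replicate 2 reached the KO milk arrays, and the log2 fold change of 0.29 (95% interval -0.11 to 0.69) did not pass. *Epha2*, a receptor better known from epithelia and vessels, read 4.41, 4.30 and 4.15 with KO milk and 4.53, 4.50 and 4.54 with WT milk. The groups did not overlap, but both lay below the floor, and the difference of -0.24 did not pass limma (unadjusted p = 0.184) although it did pass the methods' t-test (exact permutation test, two-sided p = 0.1). *Epha3*, *Epha6* and *Ephb4* had values of 0.14, -0.04 and -0.12, and *Epha1*, *Epha8*, *Epha10* and *Ephb3* lay between -0.08 and 0.22.

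Of the 8 ephrins, 2 lay above and 6 below 0, with a median of -0.05 and 0 passed. *Efna5*, a ligand in retinal and hippocampal maps, read 7.76, 6.90 and 7.44 with KO milk and 7.53, 8.18 and 7.13 with WT milk. The groups overlapped, and the log2 fold change of -0.25 (95% interval -0.89 to 0.39) became -0.53 with the Y-gene signal as a covariate (unadjusted p = 0.0333 from limma) and 0.03 without WT milk replicate 2. *Efnb3*, an ephrin of axons and synapses that oligodendrocytes also carry, read 11.55, 11.23 and 11.85 with KO milk and 11.12, 11.45 and 11.45 with WT milk, a difference of 0.20. *Efnb2*, which neurons and arteries express, read 12.22, 11.74 and 12.10 with KO milk and 12.19, 11.84 and 12.04 with WT milk. Its difference of -0.0043 (95% interval -0.43 to 0.43) was the smallest of the ephrins. *Efna1* and *Efna3* had values of 0.21 and -0.06, and *Efna2*, *Efna4* and *Efnb1* lay between -0.09 and -0.05.

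Outside these families, 109 of 116 listed genes of the same pathways were measured. In limma 1 was higher, 4 were lower (unadjusted p under 0.05) and 104 did not pass, with a median of 0.03. Over all clusters the shares at this threshold were 1.61% higher and 1.66% lower. Over the clusters above the floor they were 0.893% and 1.84%. Among other cues, receptors and co-receptors (31 measured), *Islr2*, a modulator of neurotrophin receptors in axon growth, was higher at 10.61, 10.72 and 10.79 with KO milk and 10.34, 9.74 and 10.31 with WT milk (log2 fold change 0.58, unadjusted p = 0.0166 from limma). *Slitrk6*, a synaptic adhesion protein, and *Ret*, the receptor tyrosine kinase of GDNF ligands, were lower by log2 fold changes of -0.78 and -0.52 (unadjusted p = 0.0245 and 0.0209 from limma). *Cntn4*, an axonal contactin, was the lower one of 13 adhesion molecules, at 8.63, 8.54 and 8.77 with KO milk and 9.54, 9.20 and 9.15 with WT milk (log2 fold change -0.65, unadjusted p = 0.0046 from limma). *Chn2*, a Rac-inactivating chimaerin, was the lower one of 65 cytoplasmic transducers, at -0.58 (unadjusted p = 0.0266 from limma). Groups did not overlap for 10 of the 109 genes with KO milk higher and for 6 with KO milk lower (background 4.26% and 4.17%). The netrin receptor *Neo1* and the Dcc ligand *Draxin*, chosen after their values were seen, were among the 10. They had log2 fold changes of 0.31 and 0.40 (unadjusted p = 0.108 and 0.0503 from limma). Also among the 10 was the transducer *Dpysl4*, at 0.45 (unadjusted p = 0.0563 from limma). In the list of *Neo1* and *Draxin*, the groups overlapped for *Dscam* (0.09), *Rgma* (0.09), *Rgmb* (0.07) and *Ntng1* (-0.31).

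Marker lists of neighbouring tissue are given beside these results. Of 10 choroid plexus markers 2 were lower and 0 higher by the same threshold, and their median against the WT milk mean was -1.49, 0.48 and -1.63 in KO milk replicates 1, 2 and 3 and 0.48, 0.01 and -0.41 in WT milk replicates 1, 2 and 3, so the groups overlapped. Their summed linear signal, in units of 1000, ran over 0.939 to 300.4 with KO milk and over 141.5 to 222.3 with WT milk. *Ttr* made up most of this sum in the WT milk arrays. It read 10.76, 18.18 and 7.69 with KO milk and 17.74, 17.68 and 17.10 with WT milk. Of 10 thalamus markers 4 were lower and 0 higher. Their medians were -0.30, -0.27 and -0.28 under KO milk and 0.01, 0.16 and -0.12 under WT milk, and did not overlap. Their sum was 16.6 to 17.8 with KO milk and 16.9 to 33.9 with WT milk in the same units, which overlapped. *Calb2*, the brightest of them, read 12.94, 12.81 and 13.15 with KO milk and 12.08, 14.12 and 13.18 with WT milk. For hippocampal neurons the medians were 0.18, 0.15 and 0.16 under KO milk and 0.01, -0.20 and 0.19 under WT milk. The sum was 51.3 to 77.8 with KO milk and 53.5 to 65.8 with WT milk, and 1 of 12 markers was higher, *Prox1* of dentate granule cells, at 14.06, 14.39 and 13.96 with KO milk and 13.74, 13.44 and 13.60 with WT milk. No marker of these lists was below the floor. Of the markers of meninges, vessels, microglia and astrocytes 0 passed in either direction, and of 7 markers of oligodendrocyte precursors 1 was lower. The part of thalamus and granule cell content in the results of the members was not tested.

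**Figure D4:**
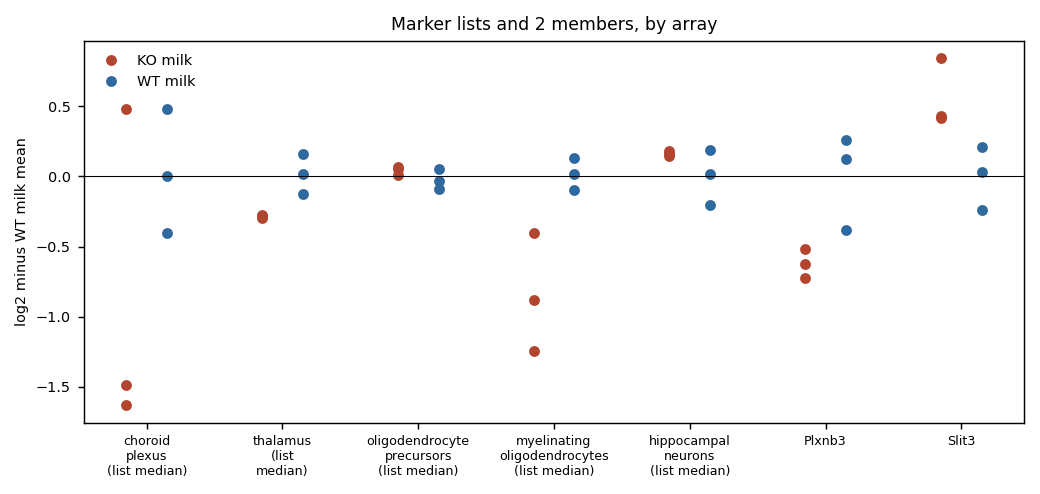
Median log2 difference from the WT milk mean (y axis) for 5 marker lists, and the same difference for *Plxnb3* and *Slit3*, with each array as a point, KO milk in red on the left and WT milk in blue on the right. The choroid plexus list splits the KO milk arrays (0.48 against -1.49 and -1.63), whereas the thalamus and myelinating oligodendrocyte lists lie lower in all 3.

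The results of the 6 members differed in how far they depended on single arrays. Over 15 other settings, *Slit3* and *Plxnb3* passed an unadjusted p of 0.05 in 14 each, *Sema6c* and *Unc5a* in 10 each and *Dcc* and *Plxna4* in 9 each. The mean over clusters is not counted, since each member has 1 cluster. The direction held for all 6 in all 15 settings, with values of 0.43 to 0.67 for *Slit3* and of -0.81 to -0.49 for *Plxnb3*. *Slit3* and *Plxnb3* each passed in 5 of the 6 settings that left out an array, *Sema6c* in 3, and *Dcc*, *Plxna4* and *Unc5a* in 2 each. Of all 65 members, 31 changed sign when some array was left out, and 14 did so without KO milk replicate 3.

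**Figure D5:**
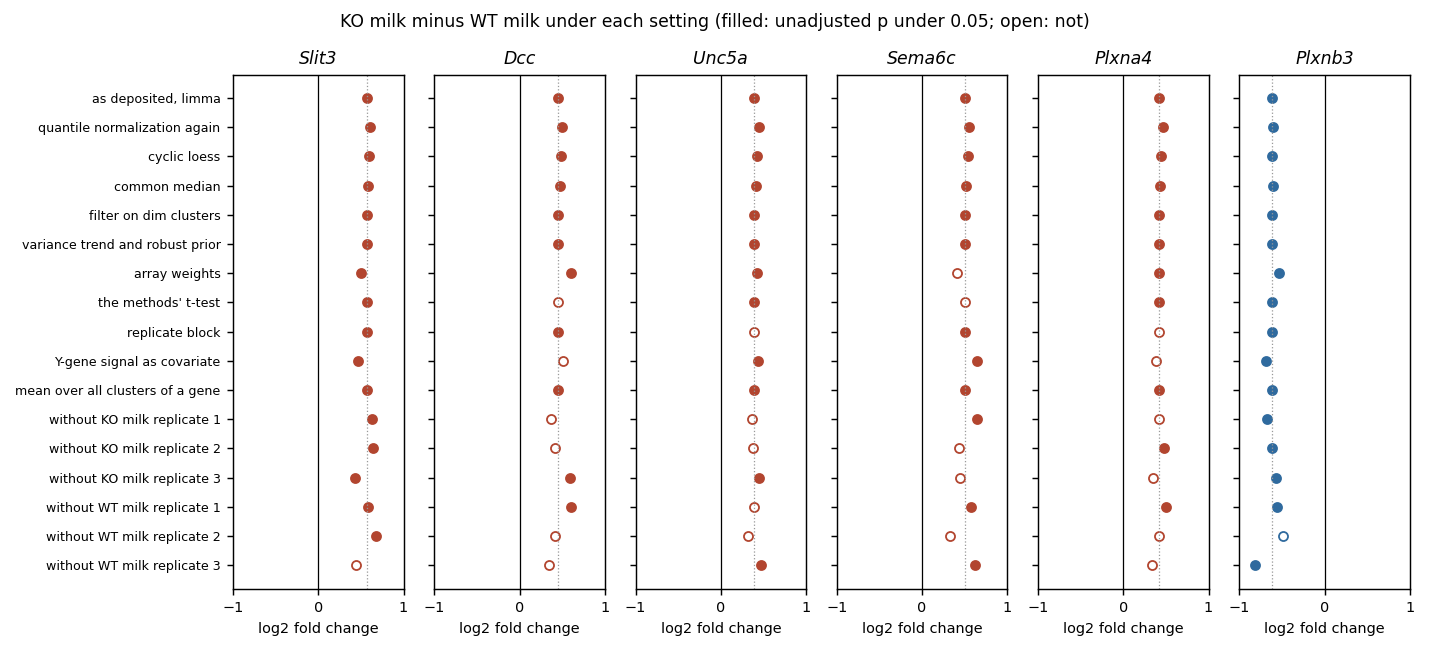
Log2 fold change (x axis, KO milk minus WT milk) of the 6 members under each setting (rows), with filled points for an unadjusted p under 0.05 and the dotted line at the reported value. No point crosses 0, and *Slit3* and *Plxnb3* each have 1 open point. The row of the mean over clusters repeats the reported values by construction.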

How the data were processed

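Total RNA from hippocampus was hybridized to 1-colour Clariom S mouse arrays. The authors used RMA in Transcriptome Analysis Console to make the deposited log2 intensities, a method that corrects background, normalizes between arrays and summarises probes. The genome build and annotation version were not given in the sources used here. Values ran from 2.23 to 19.70 over 22206 clusters, of which 19572 carried 1 gene symbol. The 6 columns were grouped by the genotype of the nursing mother. The number of arrays limits the precision.

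The brightest cluster stood for a gene, and all 65 members were found in the RefSeq table under the same symbol. The limma package (3.58.1, R 4.3.3; functions lmFit and eBayes) was applied to every cluster, with Benjamini-Hochberg adjustment over all clusters and no filter, and the fit was tested on simulated data. Single members also had an exact permutation test. No set test was run. Members named are those at an unadjusted p under 0.05 or with separate groups, the 2 with the smallest p and the 1 with the largest spread in each family, and relatives of these; the rest are given by value or range to account for every member. Members and lists were chosen with earlier results of these data known. The alternatives were quantile normalization, cyclic loess, a common median, a filter on dim clusters, a variance trend with a robust prior and array weights. Others were an unmoderated t-test, the replicate number as a block, the Y-gene signal as a covariate, the mean over clusters, and each array left out. The study's methods name the unpaired Student's t-test for comparing 2 groups, but its array p-values came from Transcriptome Analysis Console.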

Additional observations from a re-analysis of the deposited data

How the results depend on the processing

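Over the alternatives, the number of clusters called after adjustment stayed at 0 except without KO milk replicate 2, where it was 1, *Ttr* (range 0 to 1 over the arrays left out). As reported, 5 members were higher and 1 was lower. With the replicate number as a block 3 were higher (*Dcc*, *Sema6c* and *Slit3*). *Plxna4* and *Unc5a* did not pass there (unadjusted p = 0.0603 and 0.0699 from limma). With the Y-gene signal as a covariate 3 were higher and 2 lower. In the unmoderated t-test 4 were higher (*Sema4g* among them) and 2 lower. Leaving out an array gave 2 to 5 higher members (2 without KO milk replicate 1 or 2 or without WT milk replicate 2 or 3) and 0 to 1 lower (0 without WT milk replicate 2). The deviations of same-numbered arrays from their group means correlated at 0.02, -0.13 and 0.02. These values cannot settle whether samples were paired, since the litters are not given. Among the other pathway genes (1 higher and 4 lower), the higher ones numbered 3 with quantile normalization and 2 with a common median. They numbered 2 with the filter on dim clusters, 5 in the unmoderated t-test and 2 with the Y-gene signal as a covariate. Over the arrays left out 0 to 3 were higher and 1 to 5 lower.

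The median of the members ran from 0.0328 to 0.11 over the arrays left out, that of the netrins from -0.13 to 0.0639, and that of the Dcc and Unc5 receptors from -0.0505 to 0.22. The median of the netrins was -0.15 with array weights, and that of the Dcc and Unc5 receptors -0.14 with the Y-gene signal as a covariate. The cause of these shifts was not tested. Members near 0 changed sign. *Sema4d* (-0.02 as reported) was 0.0386 with quantile normalization and 0.0089 with cyclic loess.

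Over the arrays left out, *Efna5* ran from -0.488 to 0.0328, *Ntn1* from -0.132 to 0.0646, *Plxnd1* from -0.182 to 0.401, *Robo3* from -0.146 to 0.302, *Robo4* from -0.135 to 0.0290, *Sema3c* from -0.194 to 0.452, *Sema3d* from -0.435 to 0.0294, *Sema4d* from -0.254 to 0.217, *Slit1* from -0.0250 to 0.364 and *Unc5d* from -0.272 to 0.0364.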
